A study of Mus musculus with 6 samples.

Results

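The GIMAP genes, for GTPases of immunity-associated proteins, form a family of 8 genes in the mouse here, Gimap1, Gimap3, Gimap4, Gimap5, Gimap6, Gimap7, Gimap8 and Gimap9. They were taken by exact gene symbol from a table of 35556 probe sets, and all 8 were found among the 19938 genes tested, each with 1 probe set. Their signal was compared between sorted Bach2 knockout and wildtype CD4 single-positive thymocytes, T cells late in their thymic development that carry CD4 but no longer CD8. The 3 knockout arrays held Ly5.1-negative cells and the 3 wildtype arrays Ly5.1-positive cells, Ly5.1 being an allele of the surface protein CD45 (Ptprc), and the design text gives all 6 samples as taken from separate mice. Both groups were male, on the C57BL/6 background, and had developed side by side in lethally irradiated male Rag1 knockout hosts that were given equal parts of lineage-depleted marrow of both genotypes. Donors and hosts were 8 weeks old, and the cells were sorted 2 months after the transfer. The hosts lack T and B cells of their own but keep other cells. The sources used here do not give the deleted part of Bach2, and the Ly5.1 allele cannot be told apart from the Bach2 genotype.

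GIMAP proteins bind guanine nucleotides through a shared GTPase domain and sit on membranes inside lymphocytes, among them those of mitochondria, the endoplasmic reticulum and lysosomes. They are known for keeping resting T cells alive: rats and mice that lose Gimap5 have few peripheral T cells, and mouse T cells without Gimap1 are lost after leaving the thymus. In the thymus several members are induced as T cells pass positive selection and mature. Bach2 is a basic leucine zipper protein that represses transcription and binds DNA sites that resemble those of AP-1.

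The genes lie together on chromosome 6, in the order Gimap8, Gimap9, Gimap4, Gimap6, Gimap7, Gimap1, Gimap5 and Gimap3, whereas Bach2 lies on chromosome 4 and Ptprc on chromosome 1. Between the outermost members the RefSeq gene table lists 2 more genes, a pseudogene and a long non-coding RNA, and neither was among the genes tested. Promoter windows from RefSeq (GRCm38.p6), 250 bases before to 50 bases after a gene's start, were matched for all 8 members, with 9 windows because Gimap8 has 2 starts. Shown are those of Gimap7 and of its neighbour Gimap1, the members whose knockout values all lay below the wildtype values, and that of Gimap4, whose group means were nearly the same. They span chr6:48718371-48718670, chr6:48738797-48739096 and chr6:48684328-48684627, all on the plus strand. Capitals mark matches, on either strand, to TGTGGT, the core bound by Runx factors, and to GGAAGT, a core bound by Ets factors.
Gimap7 promoter: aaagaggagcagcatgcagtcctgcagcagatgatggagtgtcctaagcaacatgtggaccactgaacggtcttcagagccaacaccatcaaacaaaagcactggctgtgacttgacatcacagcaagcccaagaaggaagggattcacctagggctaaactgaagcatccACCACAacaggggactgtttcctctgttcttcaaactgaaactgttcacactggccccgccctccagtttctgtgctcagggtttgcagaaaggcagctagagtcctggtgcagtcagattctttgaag
Gimap1 promoter: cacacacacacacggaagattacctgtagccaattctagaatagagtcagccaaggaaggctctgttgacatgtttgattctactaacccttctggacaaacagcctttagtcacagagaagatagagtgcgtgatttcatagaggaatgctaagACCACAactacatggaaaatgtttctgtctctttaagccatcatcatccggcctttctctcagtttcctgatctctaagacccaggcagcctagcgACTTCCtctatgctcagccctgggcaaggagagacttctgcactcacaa
Gimap4 promoter: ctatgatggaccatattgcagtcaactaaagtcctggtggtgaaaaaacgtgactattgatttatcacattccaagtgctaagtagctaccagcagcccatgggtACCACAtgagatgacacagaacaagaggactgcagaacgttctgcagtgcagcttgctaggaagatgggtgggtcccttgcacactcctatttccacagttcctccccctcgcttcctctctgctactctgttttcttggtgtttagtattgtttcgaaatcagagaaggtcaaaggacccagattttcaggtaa

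The core shared by Bach2 and AP-1, TGANTCA, was found on neither strand in any of the 9 GIMAP windows, against 7.81% of all 32851 promoter windows of the same length. TGTGGT was in 3 of the 9, those printed here, against 16.8% of all windows. It began 79 bases before the start of Gimap7, 95 before that of Gimap1 and 145 before that of Gimap4, in each case on the minus strand. A match to GGAAGT was in 4 of the 9 (23.8% of all windows), and TGGGAA, the core bound by the Notch effector Rbpj, was in 1 of the 9 (25.6%), that of Gimap3. No motif overlapped another in the windows printed. These are matches of letters within 300 bases. They do not show whether a factor binds there or elsewhere.

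Of the 8 members, 0 passed the test in either direction (limma, Benjamini-Hochberg adjusted p under 0.05 over all genes), where 70 genes or 0.351% of all genes tested were higher and 43 or 0.216% lower in knockout cells. One member, Gimap7, had an unadjusted p under 0.05, which 6.91% of all genes also had. Gimap7 and Gimap1 had all 3 knockout values below all 3 wildtype values, an arrangement shown by 6.57% of all genes, and 0 members had the opposite arrangement, shown by 5.13%. The median difference of the family, knockout minus wildtype on the log2 scale as throughout, was 0.01, against -0.01 over all genes. In such bulk samples, fewer cells of a type and less RNA per cell cannot be told apart.

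Gimap7 (probe set 10538135) encodes a GTPase whose human form pairs with itself, and with its relative GIMAP2, to hydrolyse GTP. Its log2 signal was 8.03, 8.51 and 8.30 on knockout arrays 1 to 3, against 8.77, 9.12 and 9.14 on wildtype arrays 1 to 3. The groups did not overlap: the highest knockout value, that of replicate 2, lay under the lowest wildtype value, that of replicate 1. The means were 8.28 ± 0.24 in knockout and 9.01 ± 0.21 in wildtype cells (SD, n = 3 each). The difference was -0.73 ± 0.14 (limma standard error), with a 95% interval from -1.06 to -0.41, or a signal 1.66-fold lower with an interval from 1.33-fold to 2.08-fold. It did not pass over all genes (limma, adjusted p = 0.0706; unadjusted p = 0.000493, rank 139 of 19938 by p). A difference as low as this or lower was found for 0.281% of all genes. The call depended on single arrays and on the model. Without wildtype replicate 1 the difference was -0.85 and passed (adjusted p = 0.0335), without wildtype replicate 3 it was -0.67 (adjusted p = 0.293), and over all 17 alternative settings it lay between -0.85 and -0.61 with an adjusted p from 0.0157 to 0.71.

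**Figure D1:**
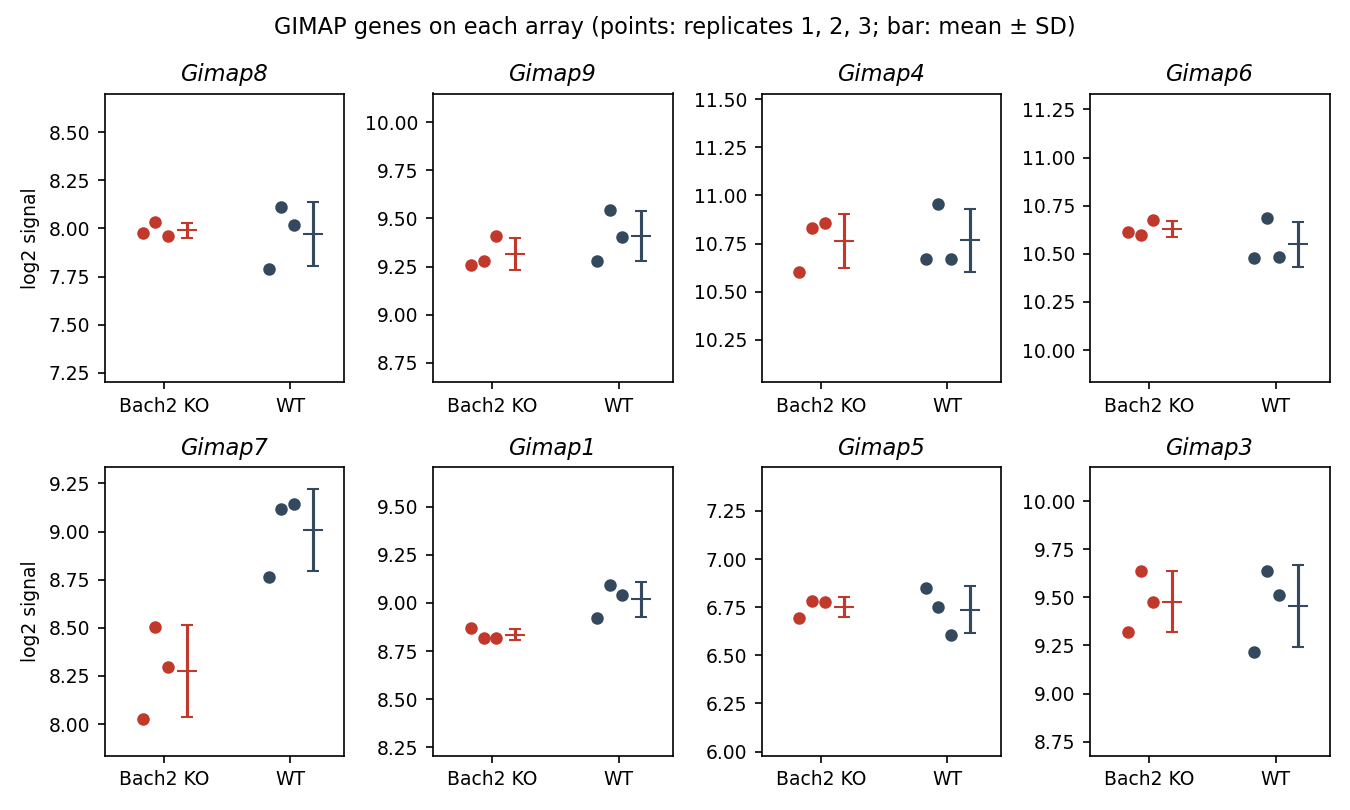
Log2 signal of the 8 GIMAP genes in chromosomal order on the 3 Bach2 knockout arrays (red, left in each panel) and 3 wildtype arrays (dark, right). Points are replicates 1, 2 and 3, bars are mean ± SD, and every panel spans the same height. In the Gimap7 panel the knockout values of 8.03 to 8.51 lie below the wildtype values of 8.77 to 9.14, and in 6 of the other 7 panels the groups overlap.

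Gimap1 (probe set 10538138), which mouse lymphocytes need to survive once mature, was at 8.87, 8.82 and 8.82 on knockout arrays 1 to 3, against 8.92, 9.09 and 9.04 on wildtype arrays 1 to 3. The groups did not overlap, and replicate 1 of each genotype lay nearest to the other. The means were 8.84 ± 0.03 in knockout and 9.02 ± 0.09 in wildtype cells (SD, n = 3 each). Gimap1 thus shared the direction of its neighbour Gimap7 at a smaller size, -0.18 with a 95% interval from -0.39 to 0.02 (limma, adjusted p = 0.799). The next genes on either side of this pair, Gimap6 and Gimap5, did not share it, with differences of 0.08 and 0.01.

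Gimap5 and Gimap3 are close relatives that have been reported to bind proteins of the BCL2 family, which set the threshold for cell death at mitochondria. Gimap5 (probe set 10538142) was at 6.69, 6.78 and 6.78 on knockout arrays, against 6.85, 6.75 and 6.61 on wildtype arrays. Gimap3 (probe set 10544588) was at 9.32, 9.64 and 9.47 on knockout arrays, against 9.22, 9.64 and 9.51 on wildtype arrays. All knockout values of Gimap5 lay inside the wildtype range, and those of Gimap3 inside it or, on replicate 2, level with its top. The differences were 0.01 for Gimap5 (95% interval -0.21 to 0.23) and 0.02 for Gimap3 (-0.27 to 0.31), each with an adjusted p = 0.998 by limma. Because Gimap5 and Gimap3 resemble each other, a probe set of one may also bind labelled cDNA of the other, and their separate values are uncertain.

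Gimap4 has been described in mouse T cells as speeding the last steps of cell death rather than preventing it. Its probe set (10538126) was at 10.60, 10.83 and 10.86 on knockout arrays, against 10.67, 10.96 and 10.67 on wildtype arrays. The groups overlapped, although the lowest value came from knockout replicate 1 and the highest from wildtype replicate 2. The means were 10.76 ± 0.14 in knockout and 10.77 ± 0.16 in wildtype cells (SD, n = 3 each), with a 95% interval of the difference from -0.26 to 0.26 (limma, adjusted p = 0.999).

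Gimap6, which has been tied to autophagy through a partner of the Atg8 family, showed the highest difference of the family at 0.08 (95% interval -0.14 to 0.30). Its values (probe set 10544583) were 10.61, 10.60 and 10.67 on knockout arrays, against 10.48, 10.69 and 10.48 on wildtype arrays, where replicate 2 lay above every knockout array. Gimap8, the longest protein of the family, was at 7.97, 8.03 and 7.96 on knockout arrays, against 7.79, 8.11 and 8.02 on wildtype arrays (difference 0.02, 95% interval -0.22 to 0.25). Gimap9, at the same end of the cluster as Gimap8, was at 9.26, 9.28 and 9.41 on knockout arrays, against 9.28, 9.54 and 9.40 on wildtype arrays (difference -0.09, 95% interval -0.32 to 0.13). These 3 genes overlapped between the genotypes, with an adjusted p by limma of 0.984 for Gimap6, 0.998 for Gimap8 and 0.979 for Gimap9.

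The 7 members other than Gimap7 thus differed by -0.18 to 0.08. The widest limits of their 95% intervals, -0.39 and 0.31, correspond to signals 1.31-fold lower and 1.24-fold higher in knockout cells, so that 3 arrays per group leave room for changes up to those sizes. All 8 members had a mean signal above 4.93, the median probe set of the table. The wildtype arrays were more spread than the knockout arrays for 7 of the 8 members, with SDs of 0.09 to 0.21 in wildtype and 0.03 to 0.24 in knockout cells, and the exception was Gimap7.

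Some arrays lay on one side of the mean for most members. Wildtype replicate 2 gave the highest value of 5 of the 8 members and lay above the 6-array mean for all 8. Knockout replicate 1 lay below the 6-array mean for 7 members and wildtype replicate 1 for 6, and each gave the lowest value of 3 members. The mean of the 8 members was 8.92, 9.06 and 9.03 on knockout arrays 1 to 3, against 8.997, 9.24 and 9.11 on wildtype arrays 1 to 3, and the groups overlapped.

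To set Gimap7 against the rest of its family within each array, the signals were centred on their own 6-array means, because the level of one probe set cannot be compared with that of another. Gimap7 minus the mean of the other 7 was then -0.54, -0.16 and -0.37 on knockout arrays 1 to 3, against 0.21, 0.34 and 0.52 on wildtype arrays 1 to 3. All 3 knockout arrays lay below 0 and all 3 wildtype arrays above it. The difference was -0.71, nearly that of Gimap7 alone, with a two-sided exact permutation p = 0.1, the smallest that 3 against 3 arrays can give. The mean of the other 7 differed by -0.02 between the genotypes (exact permutation p = 0.9). Gimap7 was singled out after its values were seen, so neither p is independent evidence, and leaving it out favours a small difference of the other 7. The mean of all 8 members differed by -0.11 (exact permutation p = 0.3).

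**Figure D2:**
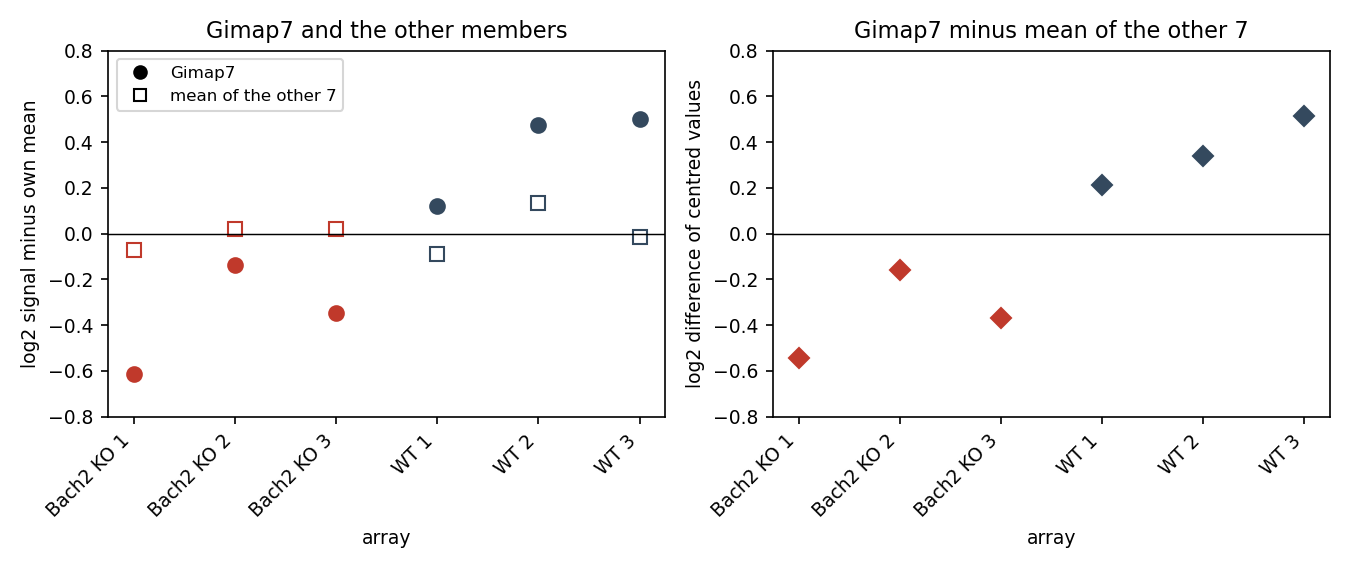
Left, log2 signal of Gimap7 (filled circles) and the mean of the other 7 members (open squares) on each array, both centred on their own mean over 6 arrays. Right, Gimap7 minus that mean, from -0.54 to -0.16 on Bach2 knockout arrays (red) and from 0.21 to 0.52 on wildtype arrays (dark).

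The genes next to the cluster were examined in the same way, 5 tested genes on each side. By limma 0 of the 10 passed over all genes, with 1 at an unadjusted p under 0.05, which 6.91% of all genes had. That gene was Tmem176b, which encodes a membrane protein and is the first tested gene beyond Gimap3. It was at 5.92, 5.82 and 5.90 on knockout arrays, against 6.70, 6.27 and 6.11 on wildtype arrays. The groups did not overlap, and wildtype replicate 1 was the highest array, unlike in Gimap7, where it was the lowest of the wildtype arrays. The difference was -0.48 with a 95% interval from -0.80 to -0.16 (limma, adjusted p = 0.343). On the other side, the genes nearest to Gimap8, AI854703 and the zinc finger gene Zfp775, differed by 0.16 and 0.02. Farther out on that side Rarres2 differed by -0.17 and Repin1 by 0.17, each without overlap of the groups. Of the 10 neighbours 2 thus lay wholly lower and 1 wholly higher in knockout cells, against 6.57% and 5.13% of all genes. Over the 10 neighbours the differences ran from -0.48 to 0.17 with a median of -0.09. Of these genes 4 had a mean under the median probe set of the table.

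**Figure D3:**
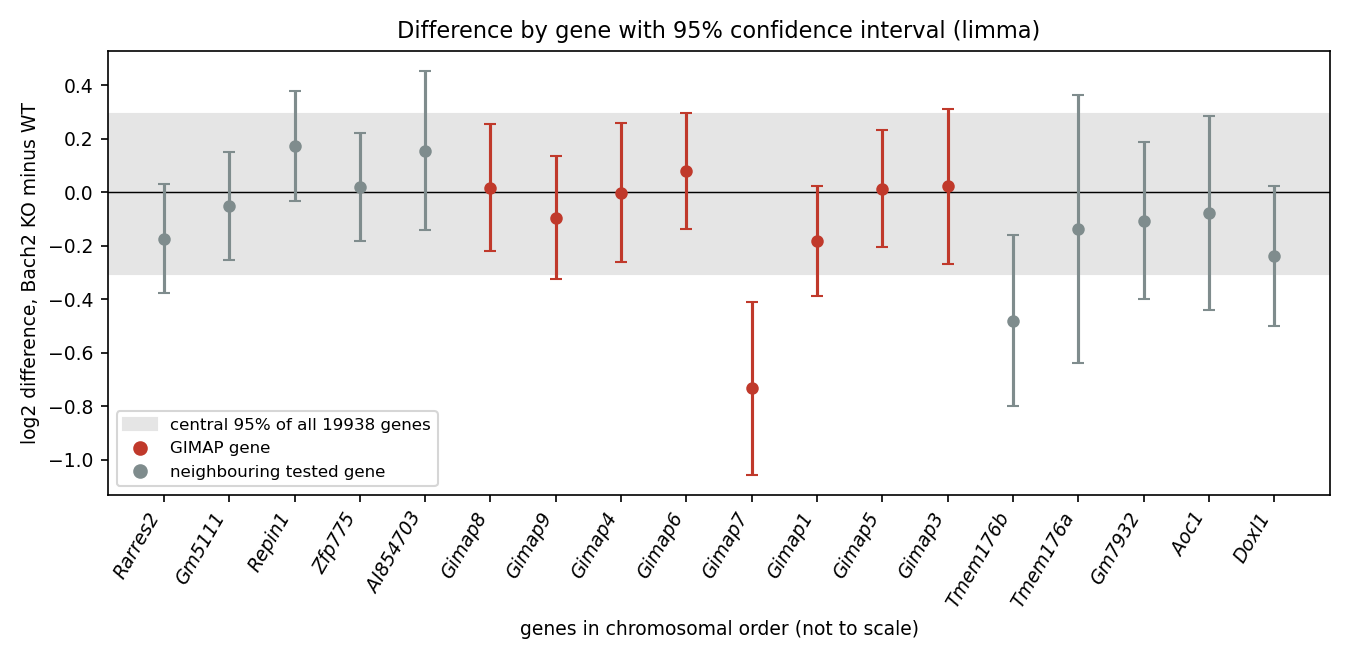
Log2 difference, Bach2 knockout minus wildtype, of the 8 GIMAP genes (red) and the 5 tested genes on each side (grey), in chromosomal order and not to scale. Bars are 95% intervals from limma and the grey band holds the central 95% of all genes, from -0.30 to 0.29. Gimap7 at -0.73 and Tmem176b at -0.48 lie below the band.

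The 5 genes outside the family whose array values followed the mean of the 8 members most closely were Senp1, a protease of the SUMO modifier, Ppp3r1, the regulatory subunit of the phosphatase calcineurin, the forkhead factor Foxj3, the kinase Dyrk2 and the RNA-binding protein Caprin1. Their centred values differed from the family's by a root mean square of 0.022 to 0.026 on the log2 scale over 6 arrays, while the family mean itself had an SD of 0.108. Of 10650 eligible genes 2146 came within 0.1, which is what a nearly flat profile allows, so this closeness is a description only. None of the 5 passed between the genotypes (differences of -0.14 to -0.09, limma adjusted p from 0.908 to 0.979).

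Of the BCL2 family and other survival genes, 0 of 11 measured passed by limma in either direction, with a median difference of -0.04. At an unadjusted p under 0.05 there was 1, where 6.91% of all genes had such a p. Bcl2, which protects T cells from death, was at 9.33, 9.46 and 9.41 on knockout arrays, against 9.45, 9.67 and 9.39 on wildtype arrays, which overlap. The members with the smallest p were Il7r and Pmaip1. Il7r, the receptor chain for the survival cytokine interleukin 7, was at 11.12, 11.13 and 11.22 on knockout arrays, against 10.59, 10.78 and 10.64 on wildtype arrays. The knockout arrays all lay above the wildtype arrays, by 0.49 on average with an adjusted p = 0.0706 by limma, the same adjusted p as that of Gimap7 at a difference of the opposite sign. Il7r passed in 1 of 6 fits with an array left out, that without wildtype replicate 2. Pmaip1, a BH3-only inducer of cell death, differed by -0.20 (adjusted p = 0.786).

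Of genes of Notch signalling, a pathway that controls early T cell development, 1 of 10 measured fell, where 0.216% of all genes did, and 9 did not pass. At an unadjusted p under 0.05 there were 4, against 6.91% of all genes, with Ptcra and Notch1 above 0 and Il2ra and Myc below it. Il2ra, the high-affinity chain for interleukin 2, fell by 1.93 (limma, adjusted p = 0.0245), to 6.31, 5.80 and 6.24 on knockout arrays, against 7.16, 8.43 and 8.55 on wildtype arrays. With any 1 of 5 arrays left out it did not pass (adjusted p up to 0.133), the exception being wildtype replicate 1. Il2ra is also a marker of regulatory T cells. The median difference of the list was 0.06.

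Late maturation genes of single-positive thymocytes, among which GIMAP genes are induced, had 0 of 11 measured members past the test by limma. At an unadjusted p under 0.05 there were 4, where 6.91% of all genes had such a p. Il7r and Ifngr1 (0.34) were above 0, and Foxo1 and Klf2 (-0.23) below it. Beside Il7r the smallest p was that of Foxo1, a transcription factor that drives Il7r and Klf2, at 8.34, 8.25 and 8.29 on knockout arrays, against 8.70, 8.77 and 8.60 on wildtype arrays. The knockout values all lay below the wildtype values, with a difference of -0.40 (limma, adjusted p = 0.15). The mean of the list was 9.66, 9.72 and 9.77 on knockout arrays, against 9.63, 9.82 and 9.74 on wildtype arrays, and the groups overlapped. Of the immature and double-positive thymocyte list 0 of 14 measured members passed by limma. An unadjusted p under 0.05 was found for 7 members of this list, beside the same 6.91% of all genes. Its median difference was 0.35, with 10 of 14 members above 0, among them the recombinase gene Rag1 at 1.27 (adjusted p = 0.591) and Arpp21 at 0.95 (adjusted p = 0.305). Rag1 overlapped between the groups and Arpp21 did not. Among the 4 below 0 was Cd24a at -0.58 (limma, adjusted p = 0.264), with all knockout values below the wildtype values. The smallest p belonged to Themis, which tunes receptor signals during selection, with a difference of 0.55 (adjusted p = 0.077, passing only without wildtype replicate 2 among the fits with an array left out), and Sox4, a transcription factor of immature thymocytes, with -0.46 (adjusted p = 0.209). The mean of this list was 7.91, 8.24 and 8.63 on knockout arrays, against 7.81, 8.10 and 7.99 on wildtype arrays. Its order over the arrays was not that of Gimap7, for which knockout replicate 1 and not replicate 3 lay farthest from wildtype.

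Markers of regulatory T cells, which are themselves CD4 T cells and can be part of the sorted population, were read beside Gimap7. So were markers of other cells, since a sort can carry some along. Of 16 regulatory T cell genes 5 fell (Foxp3, Il2ra, Ikzf2, Lrrc32 and Nt5e) and 1 rose (Izumo1r) by limma, against 0.216% and 0.351% of all genes. That list was known from earlier results of these data to move. With 1 array left out, Foxp3 passed in all 6 fits, Ikzf2 in 5 (not without wildtype replicate 3), Lrrc32 in 4 (not without knockout replicate 2 or wildtype replicate 3), Nt5e in 2 (without wildtype replicate 1 or 2) and Izumo1r in 1 (without wildtype replicate 2). The mean of the list was 6.85, 6.87 and 6.95 on knockout arrays, against 7.29, 7.98 and 7.97 on wildtype arrays. Wildtype replicate 1 lay nearest to knockout, as it did for Gimap7. The order over the knockout arrays was not that of Gimap7, for which replicate 2 and not replicate 3 was highest. Of 8 CD8 T cell genes 0 passed by limma and 4 had an unadjusted p under 0.05, against 6.91% of all genes. The mean of the CD8 list was 6.22, 6.78 and 6.60 on knockout arrays, against 6.64, 6.92 and 7.02 on wildtype arrays. The order of the arrays within each genotype was that of Gimap7, while the groups overlapped. The knockout order rested on Ccl5, at 7.20, 9.08 and 7.24 on knockout arrays. Without Ccl5 the list mean would be highest on knockout replicate 3 and not replicate 2. The 4 genes, Runx3, Eomes, Gzmb and Nkg7, were below 0. Ccl5 was also below 0, at -0.90 (limma, adjusted p = 0.789), and overlapped between the groups, as Nkg7 did. Gzma was above 0, at 0.42 (limma, adjusted p = 0.833). The defining genes Cd8a and Cd8b1 were above 0 as well, at 0.37 and 0.13. Both were highest on knockout replicate 3, not in the order of Gimap7. The part of these cells in the Gimap7 values was not tested.

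**Figure D4:**
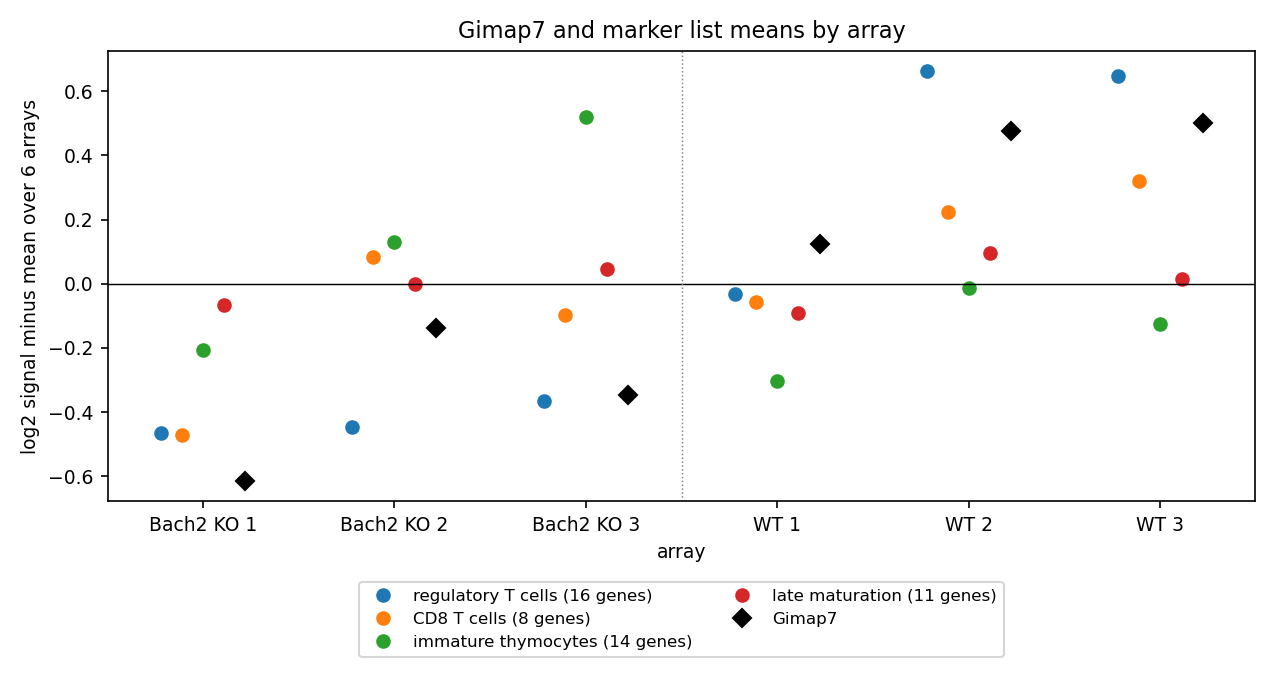
Mean log2 signal of 4 marker lists (circles) and the signal of Gimap7 (diamonds) on each array, centred on the mean over 6 arrays. The dotted line separates the 3 Bach2 knockout arrays, left, from the 3 wildtype arrays. Gimap7 and the regulatory T cell list are lower on every knockout array than on any wildtype array, and the other 3 lists overlap between the genotypes.

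Among the remaining marker lists, those of B cells, dendritic cells, thymic epithelium, endothelium, natural killer, gamma delta T and erythroid cells had 0 members past the test by limma. At an unadjusted p under 0.05 there were 0 of 6, 0 of 7, 0 of 7, 0 of 8, 2 of 8, 1 of 3 and 0 of 2, against 6.91% of all genes. Those of natural killer cells were Il2rb at -0.76, also on the regulatory T cell list, and Cd160 at -0.44, in a list with 4 members below and 4 above 0. That of gamma delta T cells was Sox13 at -0.27, in a list with 2 below and 1 above 0. Il2rb, Cd160 and Sox13 had all knockout values below the wildtype values. Endothelial cells also express GIMAP genes. Of their 8 markers 6 had a mean under the median probe set of the table, and the list's mean was 4.71, 4.69 and 4.69 on knockout arrays, against 4.76, 4.52 and 4.71 on wildtype arrays. Of 11 macrophage genes 5 had an unadjusted p under 0.05, against 6.91% of all genes. Lyz2, C1qa and C1qc were above 0 and Itgam and Mpeg1 below it. Of these 1 rose, where 0.351% of all genes did, Lyz2, by 1.39 (limma, adjusted p = 0.0256), a call kept in 2 of 6 fits with an array left out, those without knockout replicate 3 and without wildtype replicate 1. The list's mean was 5.02, 4.85 and 4.65 on knockout arrays, against 4.66, 4.52 and 4.64 on wildtype arrays, and its order over the knockout arrays was not that of Gimap7.

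The labelled cell type and genotype were checked on the arrays. Of 7 measured defining genes of CD4 T cells 0 passed by limma (0 at an unadjusted p under 0.05), with list means of 10.69 to 10.85 in knockout and 10.82 to 10.89 in wildtype arrays. Thy1, a surface protein of T cells, was at 10.45 on knockout replicate 1, the array with the lowest Gimap7 value, and at 11.40 to 11.61 on the other 5 arrays. Without that array the difference of Gimap7 was -0.61 (limma, adjusted p = 0.212). Cd8a was at 7.67 to 8.90 in knockout and 7.67 to 7.86 in wildtype arrays, the 8.90 on knockout replicate 3. Bach2 itself fell by 1.57, to 6.50, 6.42 and 6.52 on knockout arrays, against 7.89, 8.20 and 8.05 on wildtype arrays (adjusted p = 0.000156 by limma). Arrays correlated at 0.990 to 0.991 within knockout, 0.981 to 0.988 within wildtype and 0.984 to 0.989 between the genotypes (Pearson's r over the 35556 probe sets, not over replicates).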

How the data were processed

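Gene expression was measured on 6 arrays, 3 of Bach2 knockout and 3 of wildtype sorted thymocytes. The deposited values are log2 signals, 1 per probe set and array. RMA and Partek are named in the submitters' processing notes, without versions. That the scale is log2 follows from the values themselves, 1.095 to 13.2 with array medians of 4.93 to 4.97. RMA forces the arrays onto one distribution and so hides any change common to all genes. Neither the genome build nor any other step is given in the sources used here. Per the labels' protocols, 5.5 µg of amplified cDNA was labelled with biotin. The number of arrays limits the precision.

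Symbols are those of the platform annotation and may be outdated. A single symbol was listed for 21789 of 35556 probe sets, several for 1621 and none for 12146. The probe set with the highest mean stood for each of 19938 genes. The genotypes were compared by limma 3.58.1 under R 4.3.3, using lmFit and eBayes with two-sided p-values, which were adjusted by Benjamini and Hochberg's method over the whole table. The threshold was 0.05. The fit was tested on simulated data with independent normal errors. These hold no effects shared by the genes of an array, so the fit was not tested against such effects. Single profiles were compared by exact permutation over 20 splits. Promoter windows came from RefSeq (GRCm38.p6), and the RefSeq gene table served for names and gene order only. Plots used matplotlib 3.10.9 (Python 3.11.15).

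The named genes were all members and Bach2, up to 4 passing members of each list or else the 2 with the smallest p, the 5 tested genes on each side of the cluster, and the 5 genes above the median probe set whose centred array values came nearest to the family mean by root mean square difference. Bcl2, Cd8a, Thy1 and the genes compared with Gimap7 alone in the closing section were added after their values were seen. So were the further members of the immature, late maturation, Notch, CD8 T cell, natural killer, gamma delta T cell and macrophage lists. Members and lists were chosen with earlier results of these data known. Alternatives were other priors, no moderation, leaving out dim genes, averaging the probe sets of a gene, testing all probe sets, array weights, quantile normalization once more, median centring, the replicate number as a block, a fold minimum of 1.2 and leaving out each array in turn.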

Additional observations from a re-analysis of the deposited data

How the results depend on the processing

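Under all 17 alternatives 0 GIMAP members were called higher. Called lower was 0 or 1 member, and the 1 was Gimap7. It passed with a prior that followed the mean level (1 member, adjusted p = 0.0157), with the replicate number as a block (1 member, adjusted p = 0.0166) and without wildtype replicate 1 (adjusted p = 0.0335), so that fits with 1 array left out called 0 to 1 lower and 0 higher. It did not pass under the other 14, among them leaving out dim genes (adjusted p = 0.0501), all probe sets (0.418), no moderation (0.616) and a fold minimum of 1.2 (0.71), and its difference stayed between -0.85 and -0.61. The design text gives all 6 samples as taken from separate mice, so the replicate numbers do not pair cells of the same host. Whether they mark another link between arrays cannot be told from the values, because only same-numbered arrays were compared. These deviated together with r = 0.21, 0.11 and -0.07. The block gave 134 called genes against 113, with 96 shared.

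Differences close to 0 changed sign. That of Gimap4, -0.00, was 0.00167 after median centring and 0.0695 with array weights. With 1 array left out, it ran from -0.0493 to 0.0937 for Gimap4, from -0.0962 to 0.112 for Gimap3, from -0.0498 to 0.0707 for Gimap5 and from -0.0745 to 0.0875 for Gimap8. Those of Gimap1, Gimap6 and Gimap9 kept their sign under all 17, between -0.23 and -0.14, 0.04 and 0.15, and -0.16 and -0.03. No member other than Gimap7 passed under any alternative.

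Over all genes, the 70 higher and 43 lower became 1 and 0 without moderation, 29 and 8 with all probe sets and 27 and 15 with the fold minimum. The prior that followed the mean level gave 78 lower. Fits that left out 1 array called 29 to 82 genes higher and 18 to 66 lower, and both low ends came without wildtype replicate 3. The fold minimum makes the test stricter by construction, and the cause of the other changes was not tested. Signal over background is not recorded in the table, and precision was limited by 3 arrays per group.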

Other observations

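The array values of Gimap7 were also compared with those of all genes outside the family above the median probe set, a comparison added after its values were seen. The 5 nearest among 10650 genes were Eomes, a T-box factor of cytotoxic and innate-like T cells, Colq, Ift80, a protein of cilia, Sidt1 and Snord35b, a small nucleolar RNA. Their centred values differed from those of Gimap7 by a root mean square of 0.082 for Eomes and 0.12 to 0.14 for the other 4, over 6 arrays. Eomes was at 4.63, 4.92 and 4.74 on knockout arrays 1 to 3, against 5.11, 5.61 and 5.66 on wildtype arrays 1 to 3. Like Gimap7 it was lowest on knockout replicate 1 and, among the wildtype arrays, on replicate 1, and its difference was -0.69 without passing (limma, adjusted p = 0.106). Snord35b passed narrowly as lower (limma, adjusted p = 0.0499), and Colq, Ift80 and Sidt1 did not (adjusted p of 0.0984, 0.0971 and 0.11). These 5 genes were picked for their likeness to Gimap7. Their shared order and direction follow from that choice and are a description only.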
